A study of Mus musculus with 4 samples.

Results

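The integrated stress response genes Chac1, Atf5, Eif4ebp1, Nupr1, Cebpb, Trib3, Ddit3, Atf4, Asns and Vldlr were followed in the beta, alpha and delta cells of mouse pancreatic islets. They were taken by name, with earlier results of these data known, and all 10 are among the 30905 genes of the deposited gene list. In this response, kinases that sense misfolded protein, amino acid shortage or other stress phosphorylate the initiation factor eIF2alpha, which lowers translation in general and raises translation of ATF4. ATF4, often paired with a C/EBP factor, then switches on genes for amino acid supply and redox balance, and, through CHOP, genes linked to cell death. Beta cells, which make insulin at a high rate, depend on this control, and loss of the eIF2alpha kinase PERK is known to destroy them.

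Single-cell RNA was counted as unique molecular identifiers (UMIs, 1 per captured RNA molecule) with 10x Genomics 3′ chemistry, in 1 library for each of 4 groups. Late db/db with intervention, late db/db and normal control islets came from mice of postnatal day 98, and early db/db islets from mice of postnatal day 70. The db/db mouse lacks a working leptin receptor, overeats and becomes diabetic on the C57BL/KsJ background, so obesity and diabetes come together in it. All 4 groups, normal control included, carry the genotype label db/db(C57BL/KsJ). C57BL/6 mice appear beside db/db mice in the growth protocol, and the control's own strain cannot be read from these sources. The protocols name male mice, and db/db mice were kept on feed until they were hyperglycaemic and then allotted to groups at random. The sources used here do not say what the intervention was. By its file name, the early db/db matrix could be taken for another control, but its group was taken from the sample's label. How many mice went into each library is not given, so a difference between libraries cannot be split between group, animals and library. No test was possible with 1 library per group, and all 95% intervals below cover counting error only.

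Cells were classed by the share of their UMIs taken by hormone messages. Beta cells had at least 20% insulin UMIs and alpha or delta cells at least 3% glucagon or somatostatin UMIs. Beta cells numbered 3228 in the intervention library, 748 in the late db/db library, 1534 in the early db/db library and 2318 in the control library. Alpha cells numbered 545, 137, 763 and 1067 in the same order, and delta cells 260, 126, 286 and 457. Beta cells of late db/db were the deepest, with a median of 88610 UMIs against 41890 with the intervention, 56434 in early db/db and 49643.5 in the control. The kept cells of any pair of libraries shared 3 to 11 barcodes. The alpha cell factors Irx1 and Irx2 stood between 182 and 229.9 CPM in alpha cells of the 4 libraries. Ppy, another islet hormone gene, took a median of 0.0448% of UMIs in control alpha cells. It took 1.45% in those of the intervention, 1.66% in late db/db and 1.08% in early db/db. Alpha cells of the diabetic libraries thus differed from control ones in Ppy, and the part of this in their ratios was not tested. The delta cell factor Hhex stood between 307 and 477 CPM in delta cells. Among defining beta cell genes, Mafa stood at 110.3 CPM with the intervention, 36.7 CPM in late db/db, 30.5 CPM in early db/db and 1057 CPM in control beta cells, so cells gated by insulin had little of this maturity factor in the diabetic libraries. CPM counts a gene's UMIs per 1000000 summed UMIs of the class, leaving mitochondrial genes and 7 hormone genes out of the total. A ratio counts as 2-fold only where the higher library reached 50 CPM and both libraries together held 50 UMIs.

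The promoters of these genes were searched for a known control element. ATF4 paired with a C/EBP factor is known to bind a composite element whose core reads TGATGNAA, where N is any base. RefSeq promoters on GRCm38.p6, 250 bases before to 50 after a start, were at hand for 9 of the 10 genes, and Eif4ebp1 had no entry. These letters were searched on both strands, and 5 of the 9 genes (Chac1, Nupr1, Trib3, Asns and Vldlr) held them, against 3.97% of all 32851 promoters. The 9 genes had 11 promoter entries and a match in any entry counted, whereas the shares of all promoters are per entry. Atf5, Cebpb, Ddit3 and Atf4 held none in this window. The variant TGACGNAA was found in Chac1 alone among the 9, against 1.59% of all promoters. Chac1 is shown at length because it carries both and because its level differed most among the genes that passed the minimum. Its 237 bases upstream of the gene lie on the plus strand at chr2:119350992-119351228 in no annotated gene, and capitals mark the matched letters, TGACGCAA on the plus strand and TTGCATCA, a match to the first motif on the minus strand.
Chac1 upstream: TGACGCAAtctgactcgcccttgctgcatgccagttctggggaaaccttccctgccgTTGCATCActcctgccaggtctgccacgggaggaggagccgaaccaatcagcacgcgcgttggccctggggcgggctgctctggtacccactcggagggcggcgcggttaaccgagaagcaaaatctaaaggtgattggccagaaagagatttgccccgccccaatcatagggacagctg
The other 4 matches are shown with the bases around them, again with the match in capitals and in the gene's own direction. The Nupr1 window is chr7:126625562-126625591 and the Trib3 window chr2:152344028-152344057, both on the minus strand. The Asns window is chr6:7693214-7693243 on the minus strand, and the Vldlr window, from the second of its promoter entries, is chr19:27216809-27216838 on the plus strand. All 4 windows overlap an exon of their own gene in GENCODE M21.
Nupr1: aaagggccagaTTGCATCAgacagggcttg
Trib3: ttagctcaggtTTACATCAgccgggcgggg
Asns: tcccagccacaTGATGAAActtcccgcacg
Vldlr: agcagcaatagTTGCATCAgcgctcctagc
Nupr1 and Vldlr share the letters TTGCATCA with Chac1, Trib3 has TTACATCA and Asns has TGATGAAA. Counting the RefSeq start as 0, the matches run from -193 to -186 in Chac1, -110 to -103 in Nupr1, 14 to 21 in Trib3, -23 to -16 in Asns and -200 to -193 in Vldlr. A match describes letters in the reference and says nothing of binding in these islets.

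Beta cells of late db/db had less of 9 of the 10 messages than beta cells of early db/db, and the exception was Vldlr. The 2 groups differ in age label as well as in stage. The 10 genes were chosen with earlier results of these data known, so their values describe them and are no independent evidence. The median log2 ratio of the 10 genes was -0.76, against -0.06 for the 3441 genes that passed the minimum. At least 2-fold lower were 2 of the 10, Chac1 and Eif4ebp1, against 0.756% of all genes lower and 0.232% higher. Both passed the minimum through their early db/db level alone. With all UMIs as the denominator both slipped under 50 CPM and 0 of the 10 counted, and all genes then split into 9 higher and 10 lower, against 8 higher and 26 lower as reported.

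Chac1, which encodes an enzyme that breaks down glutathione, lies on chromosome 2 (119351229 to 119354381, plus strand, GRCm38). In beta cells it had 1783 UMIs with the intervention, 638 UMIs in late db/db, 1865 UMIs in early db/db and 448 in the control. These counts correspond to 38.2, 24.4, 63.4 and 13.6 CPM in the same order. Early db/db was highest and the control lowest, and no neighbouring intervals overlapped. The log2 ratio of late to early db/db was -1.38 (-1.51 to -1.24), which ranked Chac1 at place 22 from the lowest of the 3441 genes. The difference was there in shallow, middle and deep beta cells, split within each library into groups of like size by their UMIs. Chac1 stood at 23.3, 23.6 and 25.6 CPM in late db/db and at 69.4, 63.6 and 60.9 CPM in early db/db. The groups were not matched in depth between libraries.

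Trib3, the gene of a pseudokinase that ATF4 and CHOP induce and that restrains AKT, was scarce but followed the same order as Chac1. It had 432 UMIs with the intervention, 120 UMIs in late db/db, 518 UMIs in early db/db and 89 in the control, or 9.25, 4.59, 17.6 and 2.70 CPM. The log2 ratio of late to early db/db was -1.94 (-2.24 to -1.65). At these levels it did not reach the minimum and is in no count of 2-fold genes.

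Eif4ebp1 encodes a repressor of cap-dependent translation and lies on chromosome 8 (27260329 to 27276674, plus strand). It stood at 58.2 CPM with the intervention, 37.8 CPM in late db/db, 85.3 CPM in early db/db and 53.1 CPM in the control. Late db/db was lowest and early db/db highest, with a log2 ratio of -1.18 (-1.28 to -1.07). Just short of 2-fold were Cebpb and Nupr1. Cebpb, which encodes a C/EBP factor able to pair with ATF4, had 71.2 CPM with the intervention, 66.4 CPM in late db/db, 131 CPM in early db/db and 58.6 CPM in the control. Early db/db stood apart from the other 3 libraries, and the late to early ratio was -0.97 (-1.06 to -0.89). Nupr1, a small stress-induced chromatin protein first described in pancreatitis, had 195 CPM with the intervention, 109 CPM in late db/db, 213 CPM in early db/db and 189.8 CPM in the control. Here late db/db stood apart as the low library, with a late to early ratio of -0.97 (-1.03 to -0.90).

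Atf4, the transcription factor at the centre of the response, is regulated mainly at translation, so its message level is only part of its activity. It stood at 353 CPM with the intervention, 322 CPM in late db/db, 473 CPM in early db/db and 436 CPM in the control, with a late to early log2 ratio of -0.55 (-0.59 to -0.51). Asns, the asparagine synthetase gene, had 185 CPM with the intervention, 156 CPM in late db/db, 205 CPM in early db/db and 175 CPM in the control. Its late to early ratio was -0.39 (-0.45 to -0.34), and its highest library exceeded its lowest by only 1.31-fold. Ddit3, the gene of the death-linked factor CHOP, had 59.6 CPM with the intervention, 108 CPM in late db/db, 129 CPM in early db/db and 96.1 CPM in the control. Its late to early ratio of -0.25 (-0.32 to -0.18) was the smallest among the 9 genes that were lower.

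Atf5 and Vldlr were ordered differently from the rest, with the control highest. Atf5, a factor translated like ATF4 under eIF2alpha phosphorylation and known to promote beta cell survival, had 136 CPM with the intervention, 109.7 CPM in late db/db, 146 CPM in early db/db and 343 CPM in the control. Its late to early ratio was -0.41 (-0.48 to -0.34), and the control stood far above the 3 other libraries. Vldlr, the very low density lipoprotein receptor gene, had 35.1 CPM with the intervention, 31.4 CPM in late db/db, 29.8 CPM in early db/db and 62.3 CPM in the control. Its interval for late over early db/db included 0 (0.08, -0.06 to 0.21). The other genes lie on chromosome 7 (Atf5, 44812256 to 44816658, and Nupr1, 126623249 to 126630861, both minus strand), chromosome 2 (Cebpb, 167688915 to 167690418, plus strand, and Trib3, 152337422 to 152344032, minus strand) and chromosome 10 (Ddit3, 127290774 to 127296288, plus strand). Atf4 lies on chromosome 15 (80255184 to 80257541, plus strand), Asns on chromosome 6 (7675169 to 7693254, minus strand) and Vldlr on chromosome 19 (27216484 to 27254231, plus strand). Across the 4 libraries, early db/db was the highest in beta cells for 8 genes and the control for 2.

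**Figure D1:**
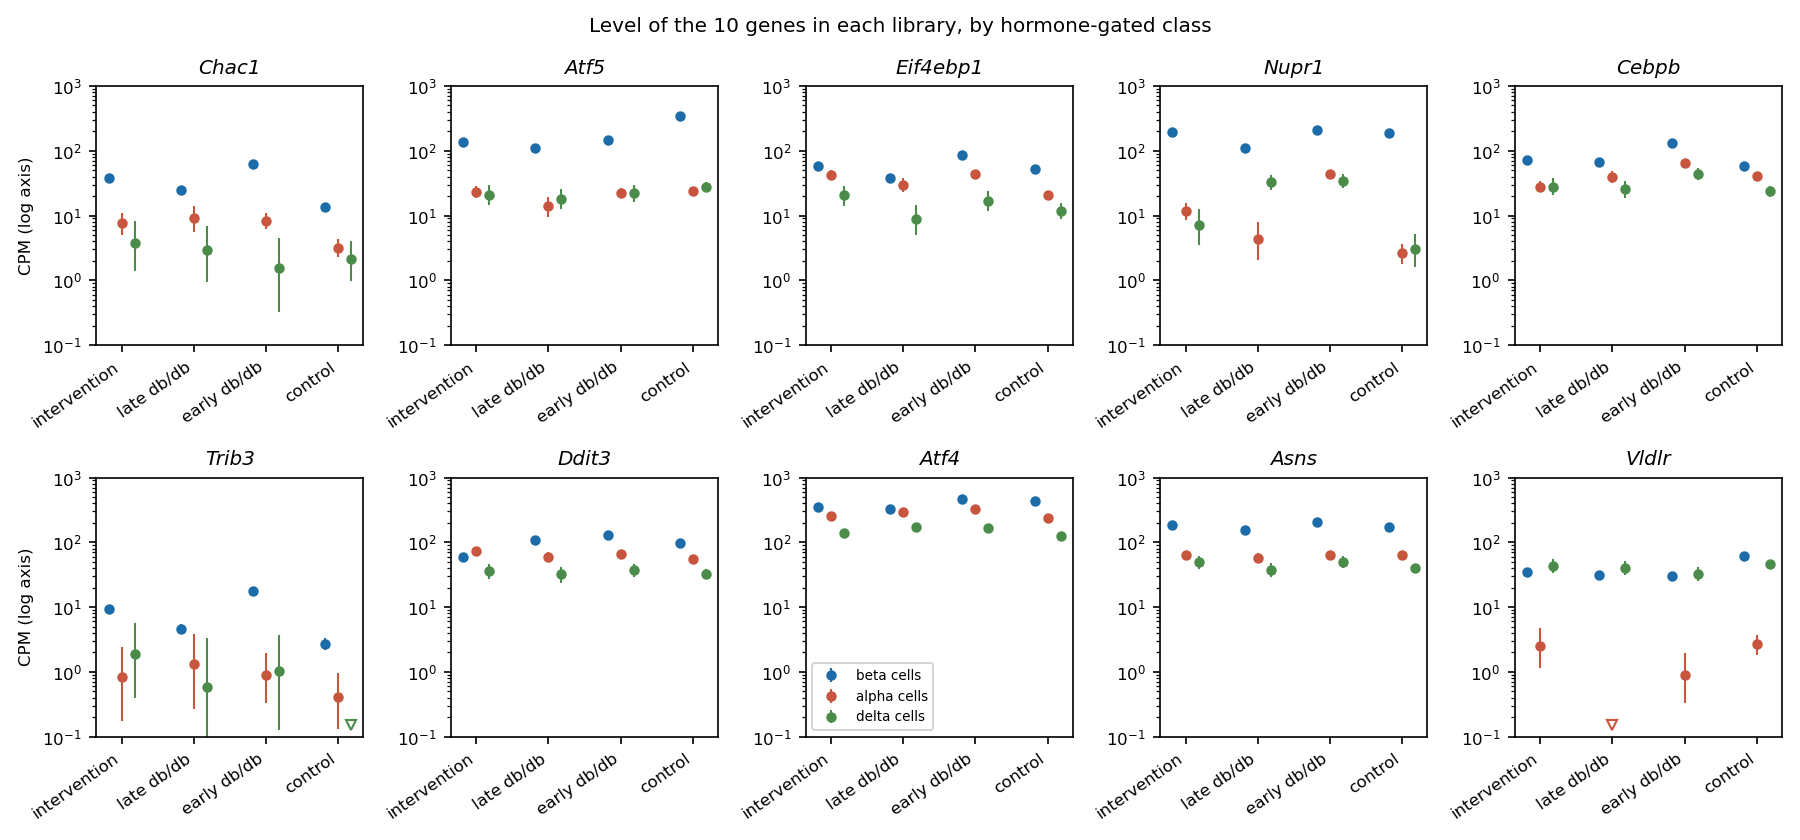
Level of each of the 10 genes in CPM (log axis) in the 4 libraries, for beta, alpha and delta cells. Points are class sums of 1 library each, bars are exact Poisson 95% intervals, and open triangles at the foot mark 0 UMIs. Beta cells of early db/db are highest for 8 of the 10 genes, while Atf5 and Vldlr are highest in control beta cells.

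Alpha and delta cells had lower levels of most of these messages than beta cells of the same library, and these classes held fewer cells. In alpha cells the log2 interval of late over early db/db lay below 0 for 5 of the 10 genes and above 0 for none. Those were Nupr1 at -3.32, Cebpb at -0.72, Atf5 at -0.68, Eif4ebp1 at -0.58 and Atf4 at -0.13. The median over the 10 genes was -0.36, against 0.01 for all 3224 genes that passed. Of the 10, 4 passed the minimum and 0 were 2-fold apart, against 0.9% of all genes lower and 0.589% higher. TMM scaling moved the split of all genes to 10 higher and 38 lower, against 19 higher and 29 lower as reported.

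Cebpb in alpha cells had 27.9 CPM with the intervention, 39.1 CPM in late db/db, 64.4 CPM in early db/db and 41.4 CPM in the control, so early db/db stood apart as it did in beta cells. Eif4ebp1 had 42.7 CPM with the intervention, 29.5 CPM in late db/db, 44.0 CPM in early db/db and 20.7 CPM in the control. Atf4 had 257 CPM with the intervention, 297 CPM in late db/db, 326 CPM in early db/db and 239 CPM in the control. Chac1 in alpha cells had 27, 21, 56 and 39 UMIs in that order of libraries, or 7.54, 9.12, 8.33 and 3.16 CPM, and late and early db/db could not be told apart (log2 ratio 0.13, -0.67 to 0.88). That interval does not include the beta cell ratio of -1.38, and the difference between the classes was not tested. Vldlr had 0 UMIs in the 137 late db/db alpha cells, 9 with the intervention, 6 in early db/db and 33 in the control. The upper 95% limit of its log2 ratio of late db/db to control was -0.66.

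Nupr1 in alpha cells was high in the library where RNA of acinar cells was high, these being the enzyme-secreting cells around the islet. Alpha cells had 11.7 CPM of Nupr1 with the intervention, 4.34 CPM in late db/db, 43.4 CPM in early db/db and 2.59 CPM in the control. The summed level of 9 acinar enzyme genes in the same cells was 1078 CPM with the intervention, 607 CPM in late db/db, 5966 CPM in early db/db and 186 CPM in the control, and none of the 9 was at 0 in any library. In the 128 acinar cells of early db/db, Nupr1 had 6.996 UMIs for each 1000 acinar enzyme UMIs. Alpha cells of early db/db had 7.28 per 1000, delta cells 5.53 and beta cells 118. Acinar cells of the other libraries, 4 with the intervention, 27 in late db/db and 3 in the control, had 0.634, 3.63 and 5.85 per 1000. At the early db/db ratio, the acinar enzyme UMIs would bring 96.1% of the Nupr1 UMIs of early db/db alpha cells, 127% of those of delta cells, more than were counted, and 5.94% of those of beta cells. The part of acinar RNA in the Nupr1 values was not tested. With the beta cell amount taken off, an alternative chosen after seeing the data, the beta cell ratio of late to early db/db was -0.91 for Nupr1. The 9 other genes had between 5.90 CPM (Trib3) and 101 CPM (Eif4ebp1) in those acinar cells, against 3311 CPM for Nupr1.

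Delta cells were the fewest, and of the 10 genes only Atf4 reached the minimum there, at 138 CPM with the intervention, 173 CPM in late db/db, 164 CPM in early db/db and 124 CPM in the control. For late over early db/db, the interval lay below 0 for Eif4ebp1 (-0.94, -1.93 to -0.02) and Cebpb (-0.80, -1.37 to -0.26), and included 0 for the other 8. The median over the 10 genes was -0.25 against -0.04 for the 4015 genes that passed, and 0 were 2-fold apart, against 0.648% of all genes lower and 0.523% higher. Chac1 rested on 3 to 9 UMIs and Trib3 on 0 to 3 UMIs per library in delta cells, too few for a ratio to be read.

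**Figure D2:**
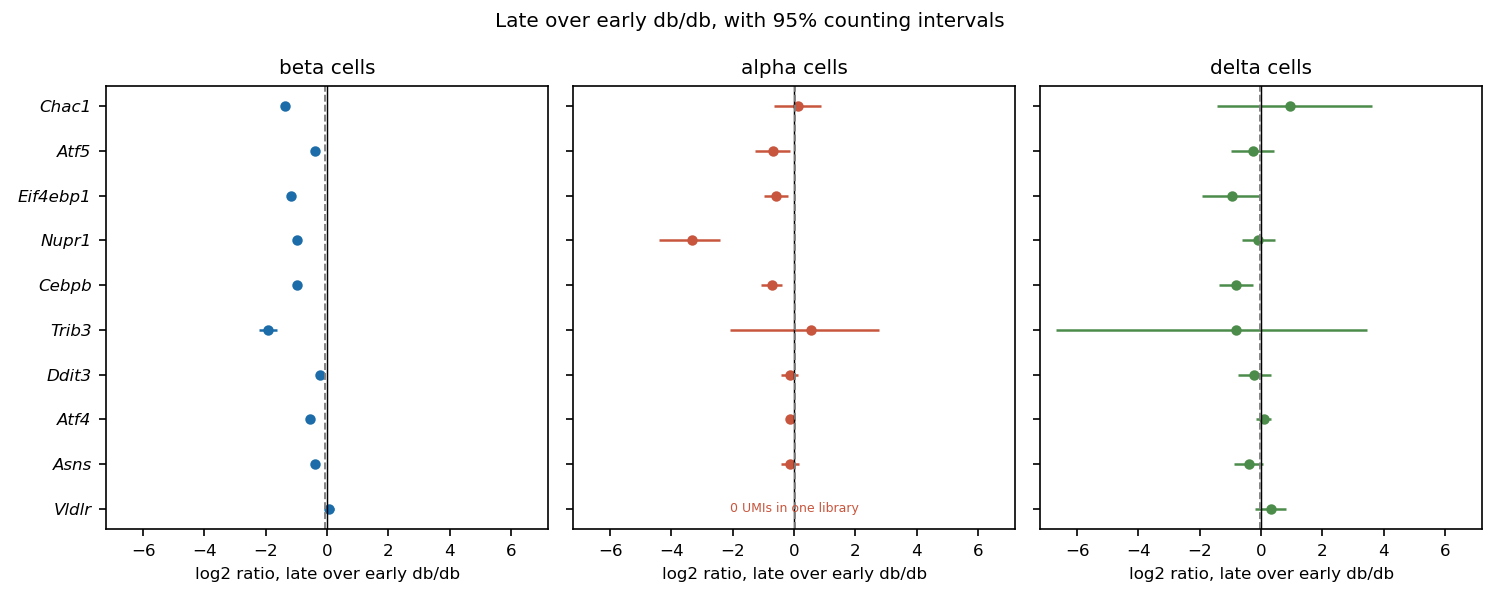
Log2 ratio of late over early db/db for each gene in beta, alpha and delta cells. Points are ratios of class sums, bars are exact binomial 95% counting intervals, and the dashed line is the median of all genes that passed the minimum. In beta cells 9 of 10 points lie left of 0 with intervals that exclude it, against 5 in alpha and 2 in delta cells.

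Insulin RNA was also counted in alpha cells, and its share differed between libraries. Insulin took a median of 2.28% of the UMIs of alpha cells with the intervention, 0.399% in those of late db/db, 0.198% in those of early db/db and 1.08% in the control, against 47.4%, 43.1%, 49.2% and 63.9% in beta cells. Slc2a2, a glucose transporter gene of beta cells, had 11.3 CPM in control alpha cells against 914 CPM in control beta cells. Nupr1 at 2.59 CPM in control alpha cells and 189.8 CPM in control beta cells stood in a similar proportion, so a level of its own in control alpha cells was not shown. With free RNA taken off, all 10 beta cell ratios of late to early db/db stayed within their counting intervals. So did all 9 in alpha cells and all 10 in delta cells. Other ratios were less steady. For early db/db over control in alpha cells, 8 of 10 kept their sign and 1 left its interval. For the intervention over late db/db in delta cells, 7 of 9 kept their sign.

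Endothelial cells and macrophages, taken by at least 3 detected marker genes, were read in the same libraries. In endothelial cells (217, 131, 428 and 208 cells in the intervention, late, early and control libraries), Cebpb had 437 CPM with the intervention, 414 CPM in late db/db, 606 CPM in early db/db and 217 CPM in the control. In macrophages (94, 141, 173 and 80 cells) it had 320 CPM with the intervention, 456 CPM in late db/db, 761 CPM in early db/db and 316 CPM in the control. Early db/db was thus the highest library for Cebpb in beta, alpha, delta and endothelial cells and macrophages, although its interval overlapped the next one in delta cells. Nupr1 was also highest in early db/db in both, at 107 CPM in endothelial cells and 85.2 CPM in macrophages, beside 35.5 and 53.2 CPM in late db/db. Acinar RNA was not measured in endothelial cells or macrophages, and its part in these Nupr1 levels was not tested. Chac1 had 11 UMIs or fewer per library in both, so its beta cell pattern could not be sought there. For late over early db/db, intervals lay below 0 for 4 of the 10 genes in endothelial cells (Nupr1, Cebpb, Atf4 and Asns) and above 0 for Vldlr. In macrophages they lay below 0 for 5 (Eif4ebp1, Nupr1, Cebpb, Ddit3 and Atf4) and above 0 for Atf5 and Asns. Atf4 had 264 CPM in late db/db and 345 CPM in early db/db endothelial cells, and 177 CPM in late db/db and 231 CPM in early db/db macrophages. Early db/db was its highest library in beta, alpha and endothelial cells and macrophages, though its interval overlapped the next in alpha cells. Late db/db was highest in delta cells. Summed over the 10 genes, Nupr1 included, early db/db was highest in every class read. The sums were 639 CPM in alpha cells, 404 CPM in delta cells, 1236 CPM in endothelial cells and 1272 CPM in macrophages. Late db/db had 511, 371, 888 and 860 CPM in that order. Eif4ebp1 had 58.9 CPM in late db/db and 56.1 CPM in early db/db endothelial cells, and 59.1 CPM in late db/db and 78.2 CPM in early db/db macrophages.

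Against the normal control, beta cells of early db/db had more of 8 of the 10 messages and less of Atf5 and Vldlr. Chac1 was higher by 2.22 on the log2 scale (2.07 to 2.38), Cebpb by 1.16 (1.08 to 1.24) and Trib3, under the minimum, by 2.71 (2.38 to 3.05). Eif4ebp1 stood at 0.68, Ddit3 at 0.42, Asns at 0.23, Nupr1 at 0.17 and Atf4 at 0.12, all with intervals above 0. With the acinar amount taken off as above, Nupr1 stood at 0.085, below its counting interval. Atf5 was lower at -1.24 (-1.29 to -1.18) and Vldlr at -1.07 (-1.18 to -0.95). So 2 of the 10 were at least 2-fold higher and 2 at least 2-fold lower, against 5.32% of all genes higher and 16.5% lower. Chac1 passed the minimum through early db/db alone and Vldlr through the control alone. The median of the 10 genes was 0.32, and that of all 4232 genes was -0.24. TMM scaling moved these medians to 0.67 and 0.20 and the split of all genes to 448 higher and 270 lower, against 225 and 699 as reported. All UMIs as the denominator gave medians of 0.73 and 0.53 and 302 higher and 66 lower. Of the 10, 0 were 2-fold lower under TMM scaling, and 0 were 2-fold lower or higher with all UMIs. With all UMIs, Chac1 and Cebpb left the count because they fell under 50 CPM, although their ratios to the control were larger. The sign of each of the 10 ratios was the same under all 9 alternatives.

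In late db/db beta cells against the control, the 10 genes did not lean to one side. Atf5 was lower at -1.64 (-1.70 to -1.58), the only one of the 10 past 2-fold, against 11.1% of all genes lower and 4.42% higher. Vldlr was just short of it at -0.99, and passed 2-fold in 4 of the alternatives, where 2 of the 10 counted. Nupr1 stood at -0.80, Eif4ebp1 at -0.49, Atf4 at -0.44 and Asns at -0.17. Chac1 at 0.85 (0.67 to 1.03) and Trib3 at 0.77 (0.36 to 1.18) were still above the control, Ddit3 and Cebpb by 0.18 each. The median of the 10 was -0.30 against -0.29 for all 4165 genes. Under TMM scaling Asns turned to 0.14, and with all UMIs Asns, Atf4 and Eif4ebp1 turned to 0.43, 0.17 and 0.11. The split of all genes was 184 higher and 462 lower as reported, 317 and 188 under TMM, and 351 and 40 with all UMIs.

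With the intervention, 9 of the 10 messages were higher than in late db/db beta cells, and Ddit3 was lower. Trib3 stood at 1.01 (0.71 to 1.31), Nupr1 at 0.84 (0.78 to 0.90), Chac1 at 0.64 (0.51 to 0.78) and Eif4ebp1 at 0.63 (0.52 to 0.73). Atf5 at 0.31, Asns at 0.25, Vldlr at 0.16, Atf4 at 0.13 and Cebpb at 0.10 differed less. Ddit3 stood at -0.86 (-0.94 to -0.79), and its 59.6 CPM were below all 3 other libraries. Of the 10, 0 were 2-fold apart, against 0.844% of all genes higher and 0.495% lower. The median of the 10 was 0.28 against -0.01 for all 3435 genes. With all UMIs as the denominator Cebpb, Atf4 and Vldlr turned to -0.09, -0.05 and -0.02, and the split of all genes became 7 higher and 16 lower, against 29 and 17. The globin genes of red blood cells, a sign of blood RNA, summed to 187 CPM (here of all UMIs) in beta cells of the intervention library, 4.62 CPM in late db/db, 63.3 CPM in early db/db and 3.04 in the control, with none of the 3 at 0. The part of that difference in these ratios was not tested.

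**Figure D3:**
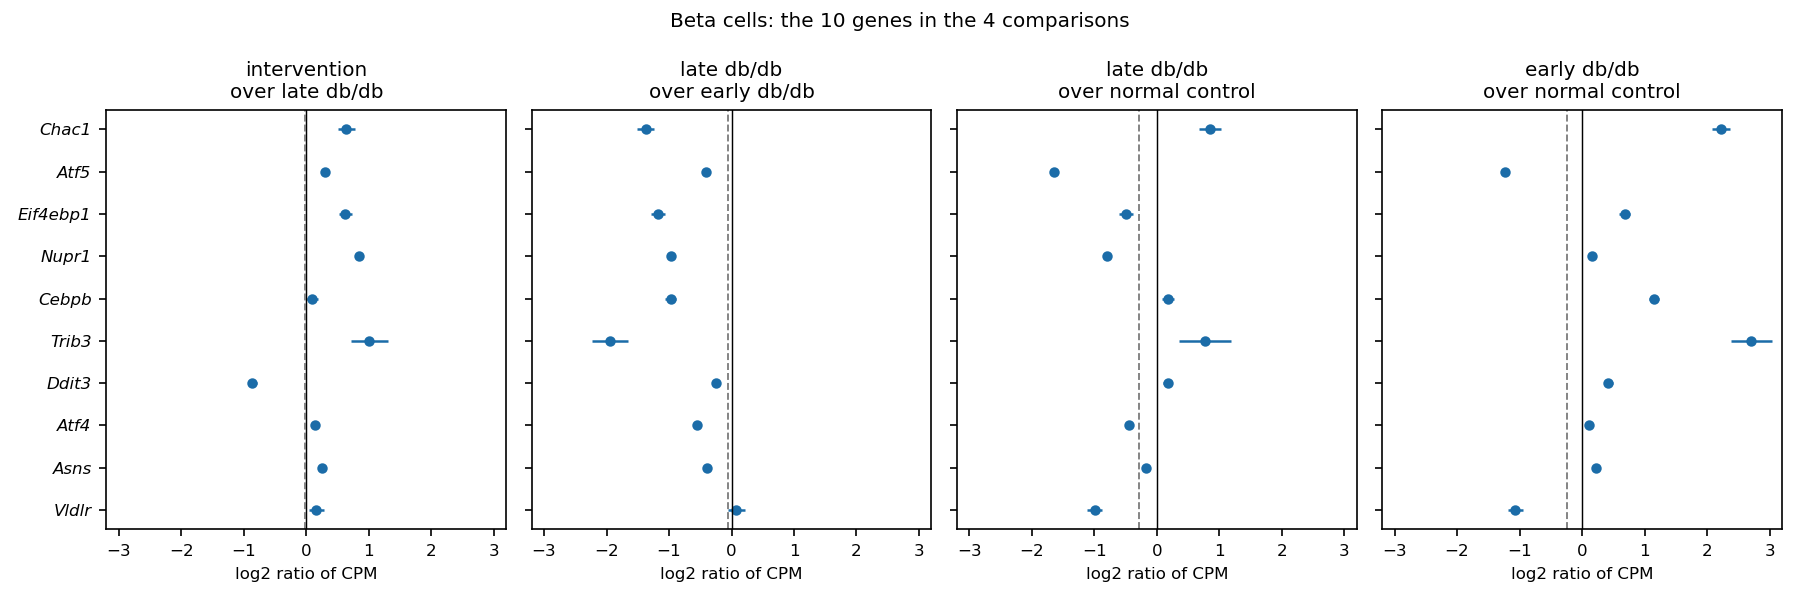
The 10 genes in beta cells in the 4 comparisons, as log2 ratios of CPM with exact binomial 95% counting intervals. Dashed lines are the medians of all genes that passed the minimum. Chac1 and Trib3 lie far right of 0 in early db/db over normal control and left of 0 in late over early db/db, and Ddit3 is the only gene left of 0 with the intervention. Comparisons that share a library are not independent of each other.

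In alpha cells, early db/db stood above the control in Nupr1 (4.07, with the acinar RNA given above), Chac1 (1.40, 0.78 to 2.03) and Eif4ebp1 (1.09, 0.84 to 1.33). Vldlr stood below it at -1.58 (-3.13 to -0.31), from 6 and 33 UMIs, and Trib3 at 1.14 had an interval that included 0. None of the 10 counted as 2-fold, since these 5 stayed under 50 CPM, against 2.18% of all genes higher and 2.18% lower. Atf4 stood at 0.45 (0.37 to 0.53) and Cebpb at 0.64 (0.45 to 0.83). TMM scaling gave 94 higher and 43 lower, and all UMIs 44 and 101, against 73 each as reported. For late db/db over control in alpha cells, Chac1 stood at 1.53 (0.69 to 2.33), Eif4ebp1 at 0.51 and Atf4 at 0.32, and Atf5 at -0.80 (-1.37 to -0.27). Of the 10, 0 were past 2-fold with the minimum, against 1.4% of all genes higher and 0.956% lower. TMM scaling gave 52 higher and 22 lower and all UMIs 23 and 26, against 47 and 32 as reported. For the intervention over late db/db in alpha cells, intervals lay above 0 for Nupr1, Atf5, Eif4ebp1 and Vldlr and below 0 for Cebpb (-0.48, -0.91 to -0.06) and Atf4 (-0.21, -0.36 to -0.07). Vldlr rested on the few UMIs given above, and Nupr1 on 42 UMIs with the intervention and 10 in late db/db. At the early db/db acinar ratio, acinar enzyme UMIs would bring 64.3% and 97.8% of these Nupr1 UMIs. Their part in the Nupr1 ratio was not tested. Ddit3, lower with the intervention in beta cells, stood at 0.30 (-0.01 to 0.61) in alpha cells, and the difference between the classes was not tested.

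In delta cells, Atf4 was above the control in both diabetic ages, at 0.48 (0.27 to 0.69) in late and 0.40 (0.20 to 0.61) in early db/db, and stood at -0.33 (-0.59 to -0.07) with the intervention over late db/db. Cebpb in early db/db stood at 0.90 (0.47 to 1.33) over the control. Of the 10, 0 were past 2-fold with the minimum in either comparison with the control, against 1.9% of all genes higher and 0.78% lower in late db/db and 2.13% higher and 1.59% lower in early db/db. Eif4ebp1 with the intervention stood at 1.21 (0.28 to 2.20) over late db/db, from 32 and 15 UMIs. Nupr1 in delta cells turned with the gate: its ratio of intervention to late db/db was -2.21 as reported and 0.63 under stricter hormone gates.

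From cell to cell, the summed level of the 10 genes varied widely within each library. Beta cells were thinned to 10000 UMIs outside hormone and mitochondrial genes, which left out 886 shallower cells with the intervention, 50 cells in late db/db, 239 cells in early db/db and 448 in the control. The summed UMIs of the 10 genes had a median of 10 per cell with the intervention, 8 UMIs in late db/db, 13 UMIs in early db/db and 12 in the control. The unthinned sums were 1139.95 CPM with the intervention, 969 CPM in late db/db, 1491 CPM in early db/db and 1429.9 CPM in the control. The range from the 10th to the 90th percentile ran from 4 to 21 with the intervention, 4 to 16 in late db/db, 6 to 27 in early db/db and 5 to 27 in the control, and the ranges of all libraries overlapped. The control was close to early db/db in this sum, with more Atf5 and less Chac1, Cebpb and Trib3.

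Across these thinned beta cells, Pearson r of each gene with the sum of the other 9 is given as its range over the 4 libraries. It was 0.45 to 0.54 for Atf5, 0.40 to 0.53 for Eif4ebp1, 0.40 to 0.49 for Nupr1 and 0.38 to 0.44 for Asns. It was 0.19 to 0.34 for Chac1, 0.20 to 0.32 for Ddit3, 0.19 to 0.33 for Atf4 and 0.13 to 0.39 for Trib3, and 0.06 to 0.29 for Cebpb and 0.06 to 0.23 for Vldlr. The order of the genes differed between libraries. These are descriptions over cells of 1 library each, and low counts alone hold r down. In alpha and delta cells thinned to 2000 UMIs the counts were too sparse to read. Shallow beta cells had more of the summed genes than deep ones in all 4 libraries, at 1232 and 1080.5 CPM with the intervention, 1025 and 963 CPM in late db/db, 1711 and 1407 CPM in early db/db and 1594 and 1279 CPM in the control.

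**Figure D4:**
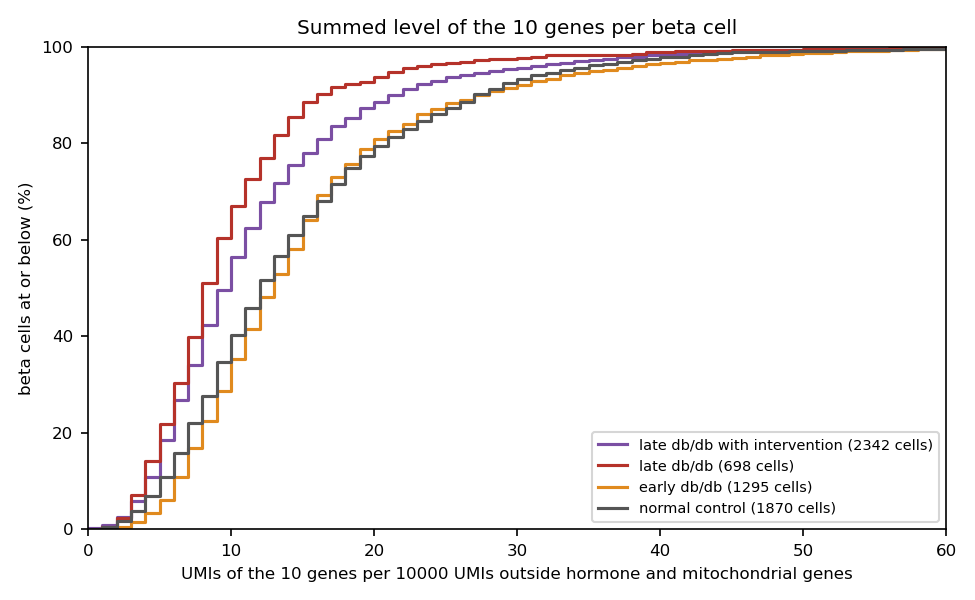
Cumulative share of beta cells (%) by the summed UMIs of the 10 genes, after thinning each cell to 10000 UMIs outside hormone and mitochondrial genes. Late db/db lies furthest left, with a median of 8 UMIs, then the intervention at 10, the control at 12 and early db/db at 13.

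The wider pathway was read in 12 related lists. In beta cells 0 of their genes were 2-fold apart between late and early db/db, near the share of all genes, 0.756% lower and 0.232% higher. Of all genes that passed, 59.6% were below 0, and the counts below 0 in the lists are to be read against that. Among 8 other ATF4 and CHOP targets that passed, 7 were below 0, with a median of -0.19. Furthest below 0 were Slc3a2, a subunit of amino acid transporters, at -0.57 (-0.63 to -0.51) and Herpud1, of endoplasmic reticulum degradation, at -0.56 (-0.59 to -0.53). Slc3a2 had 147 CPM in late db/db and 219 CPM in early db/db, and Herpud1 had 536 CPM in late db/db and 791 CPM in early db/db. Of 5 genes of serine, one-carbon and proline synthesis, 4 were below 0, led by Mthfd2 of mitochondrial folate metabolism at -0.62 (-0.71 to -0.53), with 61.9 CPM in late db/db and 95.4 CPM in early db/db. Of 14 cytosolic tRNA synthetase genes, 10 were below 0, close to the share of all genes, with a median of -0.17. The eIF2alpha kinases and phosphatase subunits had a median of -0.18 over 6 genes, the eIF2 and eIF2B subunits -0.08 over 4, and amino acid transporters -0.04 over 6.

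The ATF6 and XBP1 arms of the unfolded protein response, which raise chaperones and degradation machinery, were read beside it. The 22 genes of these arms had a median of 0.10 for late over early db/db, and 8 were below 0. Hyou1, an endoplasmic reticulum chaperone gene, was furthest at 0.93 (0.88 to 0.99), with 246 CPM in late db/db and 129 CPM in early db/db. Hspa5, the master chaperone gene, stood at 0.17 (0.16 to 0.18) with 3645 CPM in late db/db and 3241 CPM in early db/db. Medians of the remaining lists were -0.08 for mitochondrial stress, 0.00 for immediate early genes, 0.01 for mTORC1 and translation initiation, -0.05 for other CREB/ATF and C/EBP factors, and 0.16 for VLDLR ligand and lipoprotein receptors, against -0.06 for all genes.

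**Figure D5:**
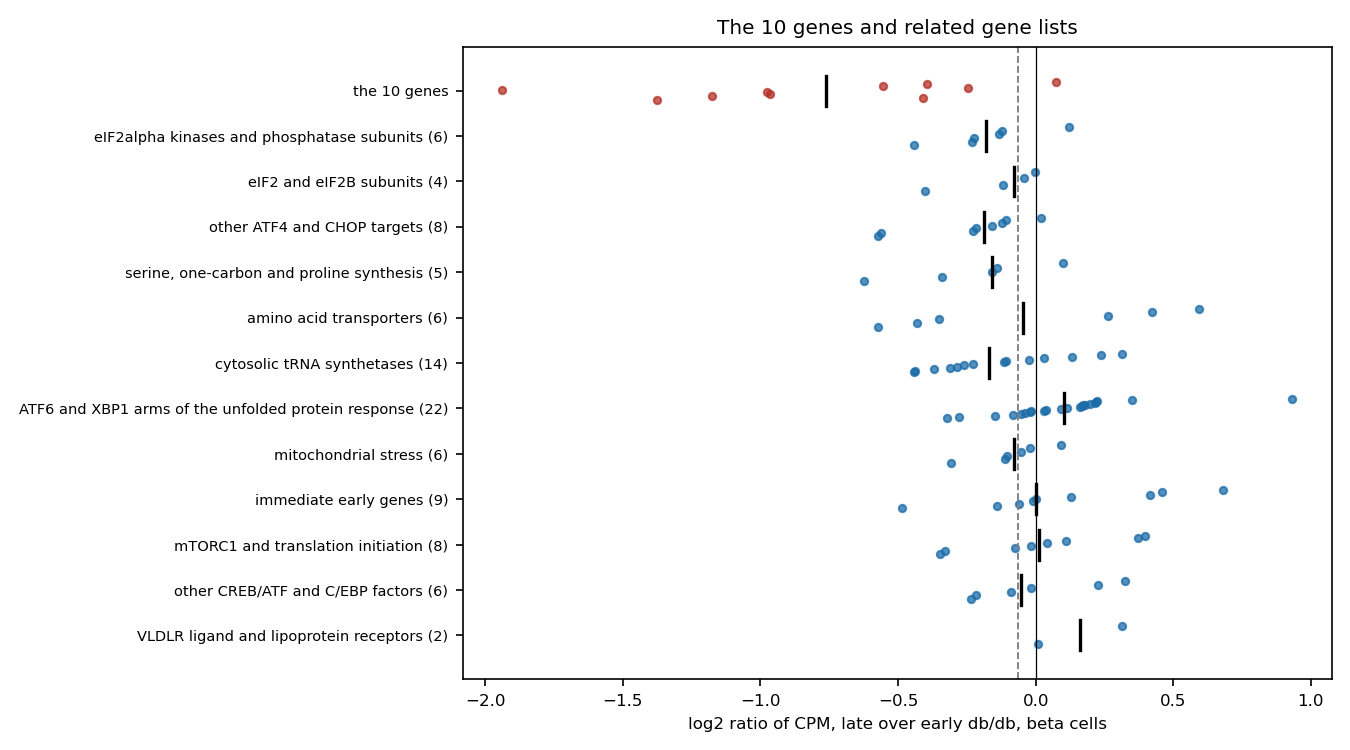
Log2 ratios of late over early db/db in beta cells for the 10 genes and for 12 related gene lists, with the number that passed the minimum in brackets. Each point is 1 gene, black bars are medians, and the dashed line is the median of all genes. The 10 genes, shown whether or not they passed, have their median at -0.76, and no list has its median below -0.19. The 10 genes were chosen with earlier results of these data known.

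Against the control, 16 list genes were 2-fold apart in beta cells of each age. In late db/db these were 5.77% higher and 9.62% lower of the 104 list genes that passed, against 4.42% and 11.1% of all genes. In early db/db they were 4.76% higher and 10.5% lower of 105, against 5.32% and 16.5% of all genes, so the shares were near or under those of all genes. Pycr1, a proline synthesis enzyme gene, stood at 1.22 in late and 1.56 in early db/db, and Mthfd1 of folate metabolism at -1.74 and -2.12. Dnajc3, whose product p58IPK inhibits eIF2alpha kinases, stood at 1.28 in late and 1.16 in early db/db, while Impact, a negative regulator of the kinase GCN2, stood at -1.35 and -1.12. The amino acid transporters Slc7a2, Slc7a8 and Slc36a1 stood at -2.22, -1.90 and -1.61 in late db/db and at -2.30, -2.21 and -2.38 in early db/db. The glycyl-tRNA synthetase gene Gars stood at -1.47 in late and -1.25 in early db/db. Derl3 and Creld2, both of endoplasmic reticulum quality control, stood at 2.40 and 1.81 in late and at 2.31 and 1.59 in early db/db. Klf6, an immediate early gene, stood at 1.61 in late and 1.19 in early db/db, and Ndrg1, Cebpd and Sort1 at -1.03, -1.92 and -1.18 in late and at -1.29, -1.20 and -1.64 in early db/db. Past 2-fold in late db/db alone were Sdf2l1 at 1.19 and Cbs at -1.14, and in early db/db alone Slc6a6 at -1.08 and Eif4ebp2 at -1.12. Under TMM scaling 13 of the 16 in late and 10 of the 16 in early db/db stayed past 2-fold, and with all UMIs 11 and 10, an alternative added after seeing the data. These counts rest on the ratio alone, without the 50 CPM minimum under the new scaling. They cannot be set beside the counts of the 10 genes, which kept that minimum. Under both scalings Impact, Gars, Ndrg1, Cebpd, Slc6a6 and Eif4ebp2 were short of 2-fold in early db/db.

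With the intervention, the list with the most 2-fold differences from late db/db was that of the immediate early genes, which respond within minutes to stimuli and to cell handling. Of 9 in beta cells, 3 were 2-fold lower, Fos at -1.28, Klf6 at -1.23 and Fosb at -1.10, with a median of -0.68. In alpha cells 6 of 10 were 2-fold lower with a median of -1.04, and in delta cells 9 of 10 with a median of -1.60. Among all genes of beta cells 0.495% were 2-fold lower and 0.844% higher, of alpha cells 0.896% and 0.777%, and of delta cells 1.34% and 0.464%. With all UMIs as the denominator, the alpha cell split of all genes was 9 higher and 20 lower, against 26 and 30, and the delta cell split 6 and 50, against 19 and 55. Ppp1r15a, which encodes the GADD34 subunit that directs dephosphorylation of eIF2alpha, was also 2-fold lower in delta cells, at -1.53 (-1.91 to -1.15) with 49.7 CPM with the intervention and 143 CPM in late db/db. Ddit4, an ATF4 target that restrains mTORC1, stood at -1.22 (-1.81 to -0.65) in delta cells.

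The genes whose levels followed the 10 most closely were named from 12 points, 3 classes in 4 libraries, as log2(CPM + 1) with each class set to its own mean, over 5118 genes. The highest Pearson r was 0.94 for Cct4, a subunit of the TRiC chaperonin. Its beta cell level was 109 CPM with the intervention, 106 CPM in late db/db, 133 CPM in early db/db and 122 CPM in the control. Idnk followed at 0.92, Dram2 and Ftl1-ps1 at 0.91, Zfp706 and Psmb3 at 0.90, and Eif3m and Mrpl13 at 0.89. Ftl1-ps1 carries the name of a ferritin light chain pseudogene and may share reads with its parent gene. Of the 9 stress response genes compared, Trib3 being under 50 CPM in every class, Eif4ebp1 reached 0.86 and Asns 0.78, and Atf5 at 0.15 and Vldlr at -0.06 were the lowest. Each of these 9 genes is itself part of the mean of the 10, which raises its r. Their r cannot be set beside those of the genes above. The 12 points share 4 libraries and 3 classes, and the values are descriptions.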

How the data were processed

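The deposited matrices hold raw UMI counts per gene and barcode, written by 10x software of version 3.0.0 per the file headers. The submitters' processing notes name CASAVA 1.8, Cell Ranger, Seurat and the build mm10. Nothing was changed in the counts before use, and the matrices were read with Python 3.11.15, numpy 2.4.6, scipy 1.17.1 and pandas 2.3.3.

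A cell was kept if it held 1000 or more UMIs and 500 or more genes, with no more than 20% of UMIs from mitochondrial genes. The cells with the highest Scrublet scores (scanpy 1.11.5) were then removed as doublets, at 0.8% per 1000 cells, because Scrublet's own threshold marked only 2 of 5115 cells of the intervention library. That took out 209, 318, 184 and 171 cells and left 4906 intervention, 5983 late db/db, 4616 early db/db and 4458 control cells. The libraries held 157952234, 120934779, 125498999 and 166034254 UMIs in that order. Beta cells also had under 3% glucagon and somatostatin, and alpha and delta cells under 20% insulin and under 3% of the other hormone. Beta cells between 10% and 30% insulin, near the threshold, numbered 564, 169, 170 and 73 in that order.

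Sums of UMIs were taken for each class in each library and divided by the summed UMIs outside mitochondrial and 7 hormone genes. Levels carry exact Poisson intervals, and log2 ratios carry exact conditional binomial intervals. The calculation was tested on simulated data. PCR duplicates are removed by UMIs, and intervals cover counting error only, not animals or libraries. Alternatives were all UMIs as the denominator, TMM factors (edgeR 4.0.16, R 4.3.3), other hormone gates, a stricter cell filter, no doublet removal, equal weight per cell, free RNA subtraction and leaving out the 5% deepest cells. For all genes, the minimum of 50 CPM was also dropped or set to 100 CPM.

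The 10 genes and the related lists were chosen with earlier results of these data known. Other genes are named where they passed 2-fold in a list, were furthest from 0 in a list, or were most correlated with the mean of the 10. The last 2 kinds, and Hspa5, were picked for their values or as a familiar marker. Gene positions are from GENCODE M21 on GRCm38, where 30766 of 30905 gene IDs were found, and promoter sequences are from RefSeq on GRCm38.p6. One item is not reported here.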

Additional observations from a re-analysis of the deposited data

How the results depend on the processing

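No 2-fold ratio over the 50 CPM minimum changed sign. Under that minimum, Nupr1 in delta cells went to 0.63 under stricter gates, against -2.21 for the intervention over late db/db as reported. Over the 9 alternatives, 1001 of 1031 values of single genes kept the sign of the reported value. In beta cells all 90 values of late over early db/db did so, and all 90 of early db/db over control. With all UMIs as the denominator, the beta cell median of the 10 genes was -0.57 for late over early db/db, 0.73 for early db/db over control, 0.30 for late db/db over control and 0.092 for the intervention over late db/db. The counts of 2-fold genes were then 0 lower for late over early db/db, and 0 lower and 0 higher for early db/db over control. That denominator puts fewer genes over 50 CPM, 1370 against 3441 for late over early db/db. Medians of all genes moved with it, to 0.11, 0.53, 0.61 and -0.21 in the same order. TMM scaling gave beta cell medians of 0.67 for early db/db over control, with 0 lower, and 0.011 for late db/db over control, and an alpha cell median of 0.70 for early db/db over control. Stricter hormone gates gave -0.64 for late over early db/db in beta cells. The count lower in late db/db over control beta cells was 2 under stricter gates, no doublet removal, equal weighting and without the deepest cells, because Vldlr passed 2-fold. With no doublets removed, delta cells had 1 gene lower in late than in early db/db, and 2 higher with a median of 1.11 in early db/db over control; the cause was not tested. Without a minimum CPM, 240 genes were higher and 154 lower in late than in early db/db beta cells, and 905 and 2638 in early db/db over control. With at least 100 CPM these were 6 and 13, and 158 and 330. No paired analysis was possible because each group has 1 library, so the groups share only the number 1. Leaving out a replicate was not possible for the same reason.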
